A study of Vitis x labruscana x Vitis vinifera with 36 samples.

Results

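The strongly skin-enriched genes of the 'Shine Muscat' berry are 104 genes with far more reads in berry skin than in berry flesh at every stage and in both kinds of berry. They were chosen from 30661 rows of a count table, of which 29971 carry VIT gene identifiers. Counts were scaled to CPM, that is, to a common total of 1 M (mega) per library, and the 3 libraries of a group were averaged. A gene was a member if its mean over the 18 skin libraries was at least 10 CPM and if log2(mean CPM + 1) was at least 2.5 higher in skin than in flesh in each of 6 pairs of groups. The CPM minimum alone left 9352 genes, so the members were 1.11% of them. Skin-against-flesh values chose the members, and they are given below as a description with no test.

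The cultivar is a table grape from a cross of Vitis labruscana Bailey and Vitis vinifera L. The berries were either seedless, which the series title ties to a treatment, or seeded and nontreated, and were sampled at stages 1, 3 and 4. The sources used here name neither the agent behind seedlessness nor the dates of sampling, and a stage numbered 2 is not analysed here. Skin and flesh were separated, which gave 12 groups of 3 libraries: seedless skin, seeded skin, seedless flesh and seeded flesh at each of the 3 stages. All groups share the one genotype. The Lasy-seq libraries index transcripts at reverse transcription and read mainly their 3′ ends. Nothing in the labels ties the 3 replicates to separate vines or clusters. A p-value therefore reflects only how far these samples spread, and part of that spread may be technical.

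The skin of a grape berry consists of an epidermis covered by a waxy cuticle and of a few small-celled layers beneath it, while the flesh is large-celled storage tissue. Skin is known as the site of the cuticle's wax and cutin, of most flavonoids and tannins outside the seed, and of much of the aroma compounds and their bound forms in Muscat-type grapes. Gene names are not paired with the identifiers in the table, so members go by their identifiers here and none is assigned a role. In an identifier such as VIT_08s0058g01230, the digits after VIT name the chromosome, with zeros for sequence not placed on one, and the last digits number the gene along a scaffold. The labelled tissues could not be checked against named marker genes for the same reason.

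Depth ran from 1.117 to 5.356 M counts per library in skin and from 0.609 to 7.343 M in flesh. Seeded stage 1 was the shallowest group of each tissue, with 1.117 to 2.379 M in skin and 0.609 to 1.253 M in flesh. Every member had at least 1 read in each of the 18 skin libraries. Between 70 and 102 members had one in a flesh library, with a median of 97.5. Bulk tissue cannot tell fewer cells of a type from less RNA per cell.

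Together the members took 1.69% to 3.46% of all counts in a skin library, with a median of 2.28%, and 0.0644% to 0.183% in a flesh library, with a median of 0.0790%. Over stages 1, 3 and 4 in turn, the share averaged 2.96% ± 0.432, 2.36% ± 0.626 and 2.11% ± 0.115 in seedless skin, and 2.60% ± 0.199, 2.39% ± 0.204 and 1.90% ± 0.187 in seeded skin (SD, n = 3 libraries). Seedless and seeded libraries overlapped at every stage: at stage 3 the seedless libraries held 1.94%, 2.07% and 3.08%, on either side of the seeded ones. In flesh, seeded stage 1 stood apart, with 0.135%, 0.163% and 0.183%, while all other flesh libraries held 0.112% or less.

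**Figure D1:**
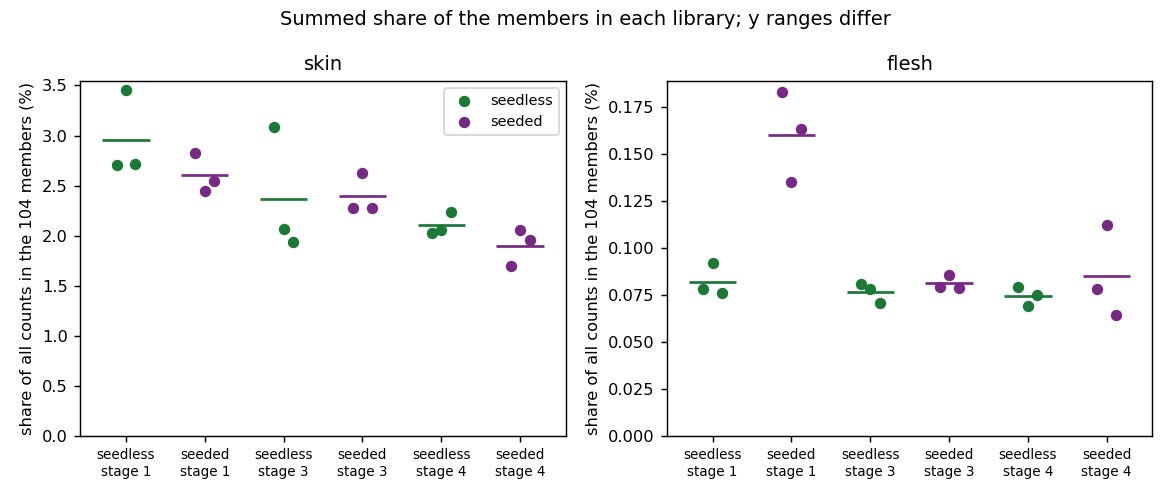
Share of all counts that fell on the 104 members (%, y axis) in each of the 36 libraries, by group, with skin on the left and flesh on the right on separate y ranges. Points are libraries and bars are group means; every skin library lies at 1.69% or more and every flesh library at 0.183% or less.

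The levels of the members covered a wide range. Mean CPM over skin ran from 11.2 to 8266 with a median of 52.7, and mean CPM over flesh ran from 0.119 to 206 with a median of 2.14. The ratio of the mean in skin to the mean in flesh lay between 7.40 and 110, with a median of 28.9. A few genes carried most of the reads: the highest member held 34.6% of the members' summed skin CPM, the highest 4 held 59.4% and the highest 10 held 74.6%. In all, 27 members averaged 100 CPM or more in skin and 13 averaged under 20 CPM.

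VIT_08s0058g01230 was the highest member and ranked 8th of all rows in skin. At stage 1 it had 9123, 12530 and 9852 CPM in seedless skin and 11084, 8614 and 9598 CPM in seeded skin. At stage 3 it had 11058, 6989 and 6931 CPM in seedless skin and 7091, 10379 and 7655 CPM in seeded skin. At stage 4 it had 5708, 6652 and 6837 CPM in seedless skin and 4896, 7099 and 6694 CPM in seeded skin. Seedless and seeded libraries overlapped at each stage, and the stage 4 values lay at the low end. Its group means in flesh ran from 156 to 333 CPM. It also had the widest guaranteed gap, since its smallest difference over the 6 pairs was 4.81 on the log2(CPM + 1) scale.

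VIT_04s0008g03930, the next highest, had 3921, 5158 and 3523 CPM in seedless skin and 2692, 2301 and 2162 CPM in seeded skin at stage 1. The libraries did not overlap there, and the log2 fold change of 0.74 ± 0.19 (edgeR adjusted p = 0.014) was lost without seeded replicate 3, seedless replicate 2, or number 2 in every group. At stage 3 seedless skin had 4297, 2664 and 2580 CPM and seeded skin had 2439, 2746 and 2673 CPM. At stage 4 it had 2714, 2838 and 3289 CPM in seedless skin and 1767, 2371 and 2357 CPM in seeded skin. Its flesh group means were 43.5 to 92.2 CPM. Its smallest difference of 4.68 was the next widest, followed by 4.46 for VIT_13s0067g03890 and 4.42 each for VIT_15s0046g00480 and VIT_15s0046g00490.

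The skin-minus-flesh difference varied within a member as well as between members. A member's smallest difference over the 6 pairs ran from 2.502 to 4.81 with a median of 2.97, and its largest ran from 2.94 to 6.59 with a median of 4.58. For 54 members the smallest difference was under 3, and for 14 it was 4 or more. By comparison, the median of the 6 differences had a median of 3.82 over the members and of -0.05 over the 9352 genes that met the CPM minimum. In 101 of the 104 members every skin library lay above every flesh library, against 3.56% of the 9352 genes, a contrast the rule itself used. The exceptions, named after their values were seen, were VIT_03s0038g01510, VIT_15s0046g02110 and VIT_12s0057g01430.

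**Figure D2:**
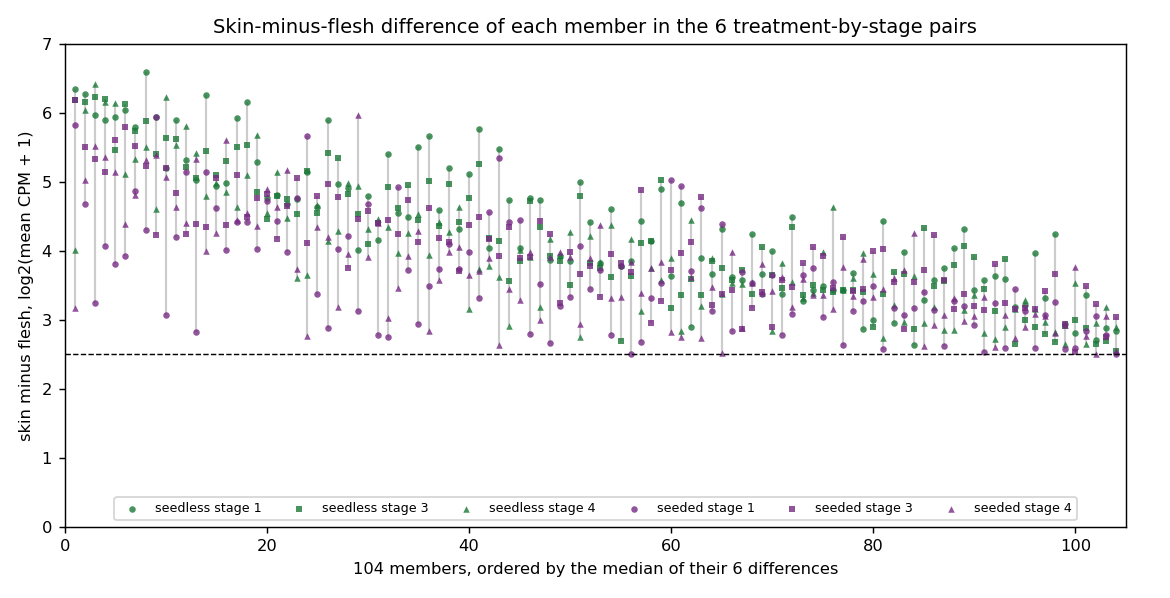
Skin minus flesh difference on the log2(mean CPM + 1) scale (y axis) for each of the 104 members (x axis, ordered by the median of its 6 differences), with 1 point per treatment-by-stage pair and a dashed line at the 2.5 the rule asked for. Many of the points nearest the line belong to seeded berries at stage 1.

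The pair of seeded stage 1 groups decided membership most often. It gave the smallest of the 6 differences for 46 members, against 12 and 26 for seeded stages 3 and 4 and 5, 7 and 8 for seedless stages 1, 3 and 4. The median difference over members was 4.32, 4.06 and 3.83 in seedless berries at stages 1, 3 and 4, and 3.47, 3.98 and 3.62 in seeded berries. Another 57 genes met the rule in every pair except seeded stage 1, while between 1 and 12 genes failed only one of the other pairs. At stage 1 the median member reached 1.68 CPM in the flesh of seedless berries and 2.84 CPM in that of seeded ones. The seeded flesh libraries of that stage were the shallowest, so that 3 counts over the group already correspond to 1.17 CPM, against 0.157 to 0.288 CPM in the other flesh groups. No read fell on 8 members in that group. The part of depth in the narrower gap was not tested.

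Just inside the threshold were VIT_00s0366g00020, with a smallest difference of 2.502, and VIT_11s0206g00110, with 2.51. Just outside were VIT_06s0004g05310 with 2.49 and VIT_06s0004g01250 with 2.46. All 4 were limited by seeded stage 1. Low genes had less room to meet the rule: 0.534% of the genes at 10 to 20 CPM in skin were members, against 1.26% at 20 to 100 CPM and 1.47% at 100 CPM or more. For the lowest member, VIT_00s0484g00030, its mean of 11.2 CPM over all skin libraries against a flesh level of 0 would give a difference of 3.61. The limit in a single pair depends on the skin mean of that group.

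The members were spread over the genome unevenly as a description. Sequence not placed on a chromosome held 14 members, or 13.5% of them, against 5.05% of the 9352 genes. Chromosomes 5 and 6 held 9 each, which is 8.65% of the members against 5.82% and 5.69% of the genes. Chromosome 15 held 7, or 6.73% against 3.36% of the genes, and chromosome 1 held 2, or 1.92% against 6.07%. Chromosome 8 held 0.962% of the members, a single gene that was also the most abundant one, against 6.83% of the genes. Gene numbers within 100 of each other on a scaffold linked 18 members into 9 pairs. Such pairs were not counted among the 9352 genes, so whether members lie closer together than other genes was not tested.

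In the pair VIT_15s0046g00480 and VIT_15s0046g00490, with adjacent numbers, the skin means were 55.5 and 60.6 CPM and the flesh means 0.641 and 0.764 CPM. Their levels had a correlation of 0.88 across the 18 skin libraries, which share depth and tissue. The pair VIT_04s0008g03930 and VIT_04s0008g03950 differed more than any in level, with skin means of 2916 and 25.9 CPM and a correlation of 0.48. Over the 9 pairs the correlation ran from -0.10 to 0.88 with a median of 0.51. Whether near-identical neighbours share reads could not be assessed.

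Within skin, the question the design asks is how seedless berries differ from seeded ones as they ripen. These contrasts set skin against skin, which the rule did not do, although the same skin libraries entered it. The fit covered 14193 genes in the 18 skin libraries with edgeR's quasi-likelihood test, and a gene was called when its p-value, adjusted over all of them, was under 0.05. All 104 members were tested. Fold changes are log2, seedless minus seeded or later minus earlier stage, with standard errors (SE).

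Some libraries of seedless skin stood apart among the members. In seedless skin at stage 3, replicate 1 was the highest of its 3 libraries for 96 of 104 members, or 92.3%, against 35.2% of the 9352 genes. The median member was 0.58 higher there on the log2 scale than in the other 2 libraries, against 0.00 for the 9352 genes. Replicate 3 of that group was the lowest for 81 members, or 77.9% against 33.8% of the 9352 genes, at a median of -0.40. In seedless skin at stage 1, replicate 2 was the highest for 79 members, or 76.0% against 37.6% of the 9352 genes, by a median of 0.27. Member counts per contrast are given with all skin libraries and with 1 or both of the libraries where members were highest left out. Counts that combine contrasts and counts of 2-fold changes come only from the fit with all skin libraries. Where the call of a fold change printed below changed without the libraries where members were highest, that is stated beside it.

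At stage 1, 35 members were higher and 18 lower in seedless than in seeded skin by edgeR's adjusted p. That is 33.7% and 17.3% of the members, against 13.9% and 11.7% of the genes with at least 10 CPM in skin. Counted in either direction, 51.0% of the members and 20.2% of all tested genes were called. The median log2 fold change was 0.36 over the members and 0.02 over all genes. Of the called members, 19 rose and 7 fell at least 2-fold, and changes of that size were not counted over all genes. Fold changes of single members ran from -1.78 to 2.19.

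The largest called rise at stage 1 was in VIT_14s0060g00900. It had 857, 954 and 866 CPM in seedless skin and 167, 195 and 198 CPM in seeded skin, so every seedless library lay far above every seeded one. The log2 fold change was 2.19 ± 0.20 (edgeR adjusted p = 1.4e-06). At stage 3 the gene had 1139, 671 and 772 CPM in seedless skin and 399.5, 473 and 443 CPM in seeded skin, a gap of 0.89 ± 0.18 (edgeR adjusted p = 0.0056), or 0.64 ± 0.14 without seedless replicate 1 of stage 3 (edgeR adjusted p = 0.0037). By stage 4 the libraries overlapped, with 811, 919 and 1113 CPM in seedless skin and 582, 889 and 829 CPM in seeded skin, and the gene was not called (0.25 ± 0.18, edgeR adjusted p = 0.58). Seedless skin thus stayed near one level while seeded skin was higher at each later stage.

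VIT_00s0207g00010 was next, with 295, 348 and 266 CPM in seedless skin and 80.3, 60.9 and 65.5 CPM in seeded skin at stage 1. Its log2 fold change was 2.04 ± 0.19 (edgeR adjusted p = 1.2e-07). At stages 3 and 4 it was not called, with 0.38 ± 0.17 and 0.48 ± 0.17 (edgeR adjusted p = 0.17 and 0.15). Without replicate 1 of seedless skin at stage 3 the stage 4 difference was called (edgeR adjusted p = 0.011). VIT_06s0004g01510, among the 6 most abundant members, had 719, 874 and 849 CPM in seedless skin and 367, 381 and 361 CPM in seeded skin. Its rise was 1.07 ± 0.10 (edgeR adjusted p = 3.4e-10).

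The largest fall at stage 1 was in VIT_03s0038g01510, the fifth most abundant member. It had 740.5, 754 and 648 CPM in seedless skin and 2076, 2684 and 2237 CPM in seeded skin, without overlap. The log2 fold change was -1.78 ± 0.21 (edgeR adjusted p = 3.5e-05). Its flesh group means were also at their highest, 278 CPM, in seeded berries at stage 1, against 70.5 CPM in seedless flesh. VIT_05s0049g01550 had 11.4, 23.7 and 23.1 CPM in seedless skin and 34.0, 56.4 and 57.8 CPM in seeded skin, a fall of 1.41 ± 0.29 on the log2 scale (edgeR adjusted p = 0.00078).

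The stage 1 comparison also differs in depth and RNA makeup between its sides. Seedless skin had 2.958 to 4.019 M counts per library and seeded skin 1.117 to 2.379 M. Rows with ENSRNA identifiers took 0.480% to 0.619% of the counts in seedless skin and 0.622% to 1.66% in seeded skin. With all skin libraries thinned to the depth of the shallowest, 30 members were higher and 16 lower. Without the pair of libraries in which members were highest, 33 were higher and 20 lower. In these fits 44.2% and 51% of the members and 18.4% and 17.4% of all tested genes were called in either direction. The part of the ENSRNA share in these calls was not tested.

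**Figure D3:**
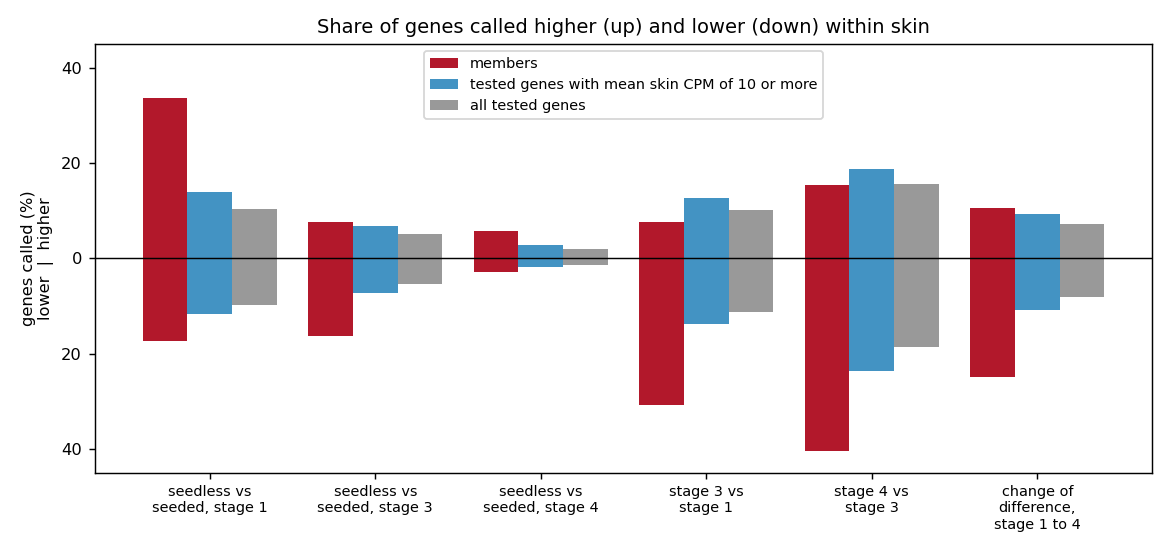
Share of genes called higher (upward bars) and lower (downward bars) in 6 contrasts within skin (%), for the members, for the genes with at least 10 CPM in skin and for all tested genes. At stage 1 the members' bar reaches 33.7% higher, and from stage 3 to stage 4 it reaches 40.4% lower.

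At stage 3, 8 members were higher and 17 lower in seedless skin by edgeR's adjusted p, or 7.69% and 16.3%, against 6.74% and 7.2% of the genes with at least 10 CPM. In either direction 24.0% of the members and 10.6% of all tested genes were called. The median fold change of the members was -0.01. The excess of lower members depended on the libraries left out. Without replicate 1 of seedless skin at stage 3, 5 members were higher and 27 lower, while 8.59% of all tested genes were called. Without replicate 3 of that group, 16 were higher and 10 lower, while 6.85% of all tested genes were called. Without replicate number 3 in every group, 11 were higher and 10 lower, while 5.04% of all tested genes were called. Without replicate number 2 in every group, 7 were higher and 8 lower, or 14.4% of the members in all, while 5.92% of all tested genes were called in that fit.

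VIT_11s0052g01600 had 75.9, 62.8 and 62.7 CPM in seedless skin and 17.9, 19.3 and 23.2 CPM in seeded skin at stage 3. The libraries did not overlap and the log2 fold change was 1.65 ± 0.20 (edgeR adjusted p = 3.3e-07). VIT_00s1206g00010 had 68.1, 74.4 and 73.0 CPM in seedless skin and 28.6, 36.5 and 24.1 CPM in seeded skin, a rise of 1.18 ± 0.16 (edgeR adjusted p = 1.1e-06). Both had also been higher in seedless skin at stage 1, by 1.36 ± 0.22 and 0.85 ± 0.18.

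The largest fall at stage 3 was in VIT_10s0116g00530, with 205, 162 and 169 CPM in seedless skin and 387, 430.0 and 392 CPM in seeded skin. Its log2 fold change was -1.26 ± 0.11 (edgeR adjusted p = 1.9e-10). VIT_05s0049g01020 had 22.1, 15.6 and 15.8 CPM in seedless skin and 49.0, 37.9 and 25.4 CPM in seeded skin. Its fall of 1.15 ± 0.29 on the log2 scale (edgeR adjusted p = 0.012) was lost without replicate 1 of seeded skin, without replicate 2 or 3 of seedless skin, or without number 2 in every group, with an adjusted p of up to 0.26. Both genes were also lower in seedless skin at stage 1, by log2 fold changes of -0.99 ± 0.11 and -1.16 ± 0.31.

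Called members were compared between stages 1 and 3. Of the 35 members higher at stage 1, 6 were also higher at stage 3, which is 17.1% of the stage 1 list and 75.0% of the stage 3 list. Among the genes with at least 10 CPM these shares were 21.1% and 43.5%, and 5.77% of the members and 2.93% of those genes were higher at both stages. Of the 18 lower at stage 1, 9 were also lower at stage 3, or 50% of the stage 1 list and 52.9% of the stage 3 list, against 26.4% and 42.9% among the genes with at least 10 CPM. Lower at both stages were 8.65% of the members and 3.09% of those genes. No library was common to these contrasts, but 1 estimate of the spread was. A further 2 members (1.92%) were higher at stage 1 and lower at stage 3, against 0.406% of those genes.

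At stage 4, 6 members were higher and 3 lower in seedless skin by edgeR's adjusted p, or 5.77% and 2.88%, against 2.81% and 1.88% of the genes with at least 10 CPM. In either direction 8.65% of the members and 3.48% of all tested genes were called. The total of 9 depended on the fit and on single libraries. With only the groups compared it was 24, with no filter on low counts 17 and without the pair of libraries in which members were highest 18, while 6.01%, 3.21% and 3.56% of all tested genes were called in those fits. The total was 15 without replicate 1 of seedless skin at stage 3, while 3.49% of all tested genes were called. It was 4 or 5 without any one of the stage 4 libraries other than seedless replicate 3. In those fits 1.74% to 3.06% of all tested genes were called. The total was 2 without number 2 in every group and 5 without number 3, while 1.14% and 1.47% of all tested genes were called.

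VIT_00s0454g00010 had 57.2, 38.2 and 40.7 CPM in seedless skin and 15.7, 17.7 and 17.4 CPM in seeded skin at stage 4, a rise of 1.36 ± 0.20 (edgeR adjusted p = 2.6e-05). VIT_05s0049g01550, which was lower at stage 1, had 36.7, 26.2 and 19.3 CPM in seedless skin and 8.99, 10.5 and 14.8 CPM in seeded skin. Its rise was 1.17 ± 0.29 (edgeR adjusted p = 0.023). The call was lost after thinning, without seedless or seeded replicate 1 or 2, and without number 1 or 2 in every group, with an adjusted p of up to 0.31.

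VIT_19s0015g00710 had 11.1, 10.6 and 17.8 CPM in seedless skin and 32.4, 22.8 and 29.9 CPM in seeded skin at stage 4, a fall of 1.16 ± 0.24 on the log2 scale (edgeR adjusted p = 0.0018). It was lost after thinning and without number 1 in every group, with an adjusted p of up to 0.078. VIT_10s0003g04940 had 55.6, 44.0 and 58.0 CPM in seedless skin and 87.6, 109.5 and 95.4 CPM in seeded skin, a fall of 0.95 ± 0.18 on the log2 scale (edgeR adjusted p = 0.0009), lost without number 2 in every group at an adjusted p of 0.058. In both genes the libraries did not overlap.

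One member was called in the same direction at all 3 stages. It was VIT_06s0004g04700, named after its values were seen, and it was lower in seedless skin each time. At stage 1 it had 136, 132 and 127 CPM in seedless skin and 169, 144 and 188 CPM in seeded skin. At stage 4 it had 99.8, 84.3 and 114 CPM in seedless skin and 128, 124 and 132 CPM in seeded skin. Its log2 fold changes were -0.42 ± 0.12, -0.55 ± 0.12 and -0.42 ± 0.12 at stages 1, 3 and 4 (edgeR adjusted p = 0.010, 0.0010 and 0.036). Its calls were not followed through the fits that leave out libraries. This 1 of 104 members (0.962%) compares with 0.289% of the genes with at least 10 CPM. Over the 3 stages, 62 members (59.6%) were called at least once, against 34.5% of those genes.

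**Figure D4:**
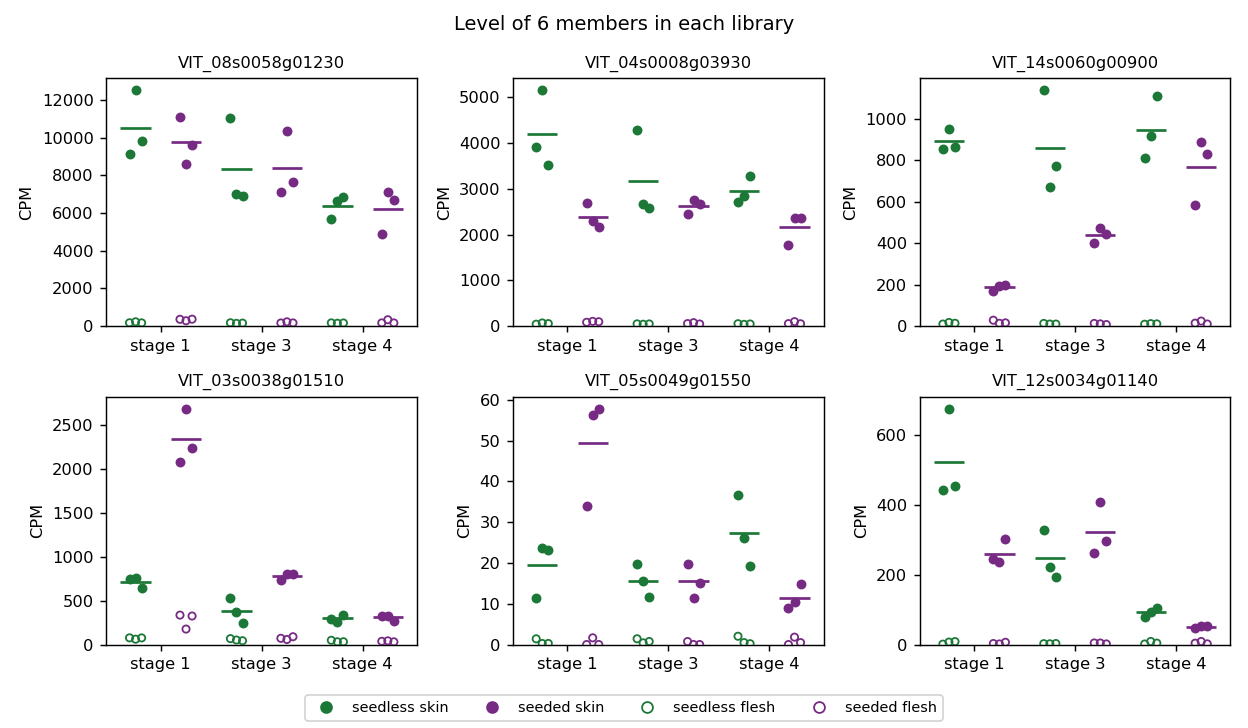
CPM (y axis, from 0) of 6 members in each library at stages 1, 3 and 4; filled points are skin, open points are flesh, and short bars are skin group means. The gap between seedless and seeded skin is wide at stage 1 in VIT_14s0060g00900 and VIT_03s0038g01510 and closes by stage 4, while in VIT_05s0049g01550 the order of the groups differs between stages 1 and 4.

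The difference between seedless and seeded skin itself changed between stages 1 and 4 in 37 members by edgeR's adjusted p. It moved upward in 11 members and downward in 26, or 10.6% and 25.0%, against 9.26% and 10.8% of the genes with at least 10 CPM. In either direction it was 35.6% of the members and 15.4% of all tested genes. The median change was -0.26 over the members and -0.03 over all genes. Without the pair of libraries in which members were highest, 22 moved upward and 23 downward, or 43.3% of the members. In that fit 14.5% of all tested genes were called. Without number 2 in every group, 12 moved upward and 10 downward, or 21.2% of the members, while 10.2% of all tested genes were called. The excess of downward changes was not kept in these fits.

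The downward changes included members whose stage 1 excess in seedless skin was gone by stage 4. VIT_04s0008g03950 had 37.8, 60.2 and 31.4 CPM in seedless skin and 14.3, 14.3 and 8.19 CPM in seeded skin at stage 1. At stage 4 it had 9.96, 15.3 and 10.3 CPM in seedless skin and 18.4, 20.5 and 14.8 CPM in seeded skin. The change was -2.38 ± 0.37 (edgeR adjusted p = 1.8e-05).

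VIT_10s0003g04940 had 54.5, 58.8 and 52.4 CPM in seedless skin and 19.3, 36.7 and 25.1 CPM in seeded skin at stage 1, the opposite of its order at stage 4. It was called higher at stages 1 and 3 (1.03 ± 0.21 and 0.76 ± 0.18) and lower at stage 4. Without seedless replicate 1 of stage 3 the stage 3 call was lost, at 0.52 ± 0.18 (edgeR adjusted p = 0.071). The change was -1.98 ± 0.28 (edgeR adjusted p = 3.9e-06). Seedless skin was level over the stages, with group means of 55.2, 60.3 and 52.6 CPM, and seeded skin averaged 27, 33.6 and 97.5 CPM.

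The upward changes were led by VIT_05s0049g01550, at 2.58 ± 0.41 (edgeR adjusted p = 7.0e-05), and VIT_00s0454g00010, at 2.07 ± 0.27 (edgeR adjusted p = 6.3e-07). In seedless skin, VIT_00s0454g00010 had 36.1, 41.6 and 41 CPM at stage 1, and in seeded skin 67.7, 60.9 and 55.3 CPM. It was lower in seedless skin at stages 1 and 3 and higher at stage 4. VIT_10s0116g00530 did the same: at stage 4 it had 278, 288 and 334 CPM in seedless skin and 201, 204 and 199 CPM in seeded skin (0.52 ± 0.11, edgeR adjusted p = 0.0024). For VIT_03s0038g01510 the change of 1.67 ± 0.30 (edgeR adjusted p = 0.0015) was lost without number 2 in every group. That gene had 291, 260.4 and 337 CPM in seedless skin and 325, 328 and 269 CPM in seeded skin at stage 4, which overlap.

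Ripening was then read as the change between stages averaged over seedless and seeded skin. From stage 1 to stage 3, 8 members rose and 32 fell by edgeR's adjusted p, or 7.69% and 30.8%, against 12.7% and 13.7% of the genes with at least 10 CPM. In either direction 38.5% of the members and 21.3% of all tested genes changed. The median fold change was -0.17 over the members and 0.03 over all genes. Without number 2 in every group, 5 members rose and 20 fell, and without number 3, 3 rose and 22 fell. Either fit called 24.0% of the members, against 12.7% and 13.5% of all tested genes. Without the pair of libraries in which members were highest, 5 rose and 32 fell, or 35.6% of the members. In that fit 16.4% of all tested genes were called.

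From stage 3 to stage 4, 16 members rose and 42 fell by edgeR's adjusted p, or 15.4% and 40.4%, against 18.7% and 23.7% of the genes with at least 10 CPM. In either direction 55.8% of the members and 34.2% of all tested genes changed. The median fold change was -0.21 over the members and -0.00 over all genes. Without the pair of libraries in which members were highest, 23 rose and 36 fell, or 56.7% of the members. In that fit 30.9% of all tested genes were called. With all skin libraries, no member was called with a rise of at least 2-fold and 11 fell at least that much. Changes of that size were not counted over all genes. These steps share the stage 3 libraries. In all, 20 members fell in both steps, which is 62.5% of those that fell in the first and 47.6% of those that fell in the next. Among the genes with at least 10 CPM these shares were 61.9% and 35.6%, and in all 19.2% of the members and 8.45% of those genes fell in both steps. In both steps 3 members (2.88%) rose, against 5.11% of those genes.

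**Figure D5:**
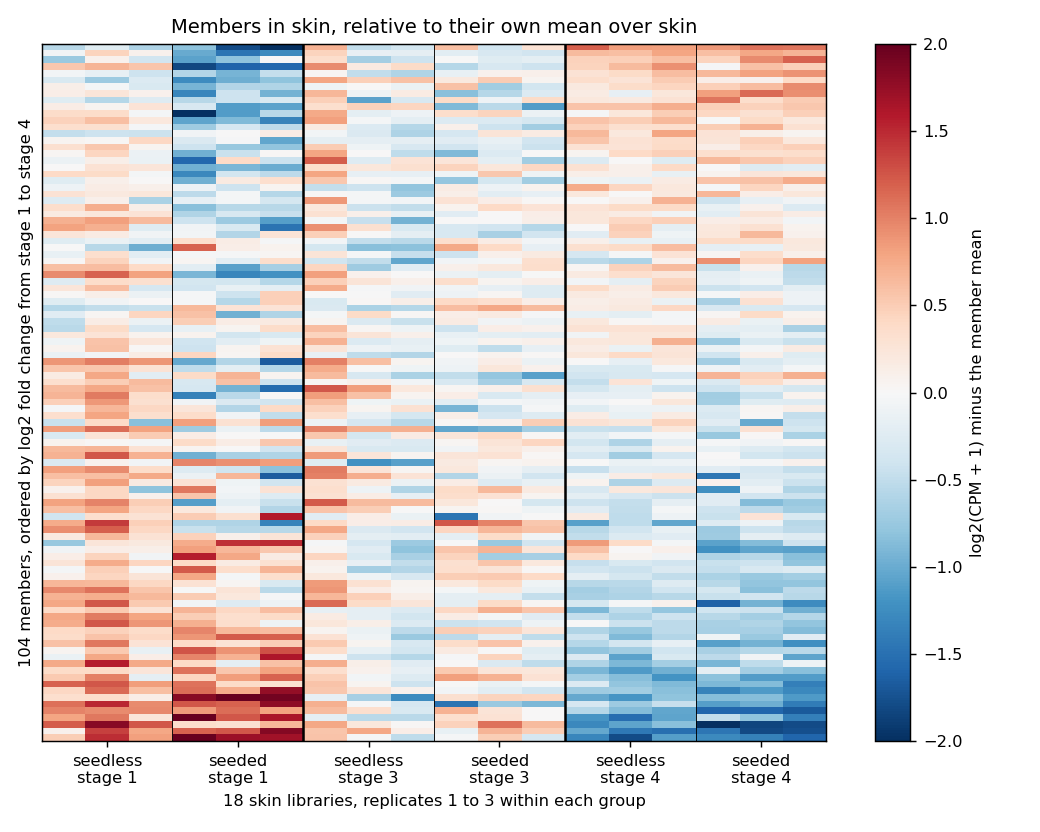
Level of the 104 members (rows, ordered by log2 fold change from stage 1 to stage 4) in the 18 skin libraries (columns, 3 replicates per group), as log2(CPM + 1) minus the member's own mean over skin. Red is above the member's mean and blue is below it. Fold changes were negative for 69 members and positive for 35 from stage 1 to stage 3, and for 68 and 36 from stage 3 to stage 4. Replicate 1 of seedless skin at stage 3 is redder than the other 2 libraries of its group.

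Among the falls, VIT_06s0004g00990 had a lowest, median and highest level of 163, 196 and 294 CPM over the 6 skin libraries of stage 1, 29.5, 58.0 and 139 CPM at stage 3 and 31.2, 46.3 and 66.6 CPM at stage 4. Stages 1 and 3 did not overlap, and the fall was 1.82 ± 0.20 on the log2 scale (edgeR adjusted p = 1.8e-05). VIT_05s0077g00030 fell by 1.13 ± 0.14 in the same step (edgeR adjusted p = 3.5e-07). Several falls came later: VIT_12s0034g01140 had 235, 372 and 674 CPM at stage 1, 193, 280 and 407 CPM at stage 3 and 46.3, 66.0 and 106 CPM at stage 4 (lowest, median and highest). It fell by 2.11 ± 0.17 from stage 3 to stage 4 (edgeR adjusted p = 3.1e-07).

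VIT_15s0046g02110 had a lowest, median and highest level of 305, 666 and 1022 CPM at stage 1, 258, 414 and 493 CPM at stage 3 and 81.3, 102 and 140 CPM at stage 4. It fell by 2.03 ± 0.24 from stage 3 to stage 4 (edgeR adjusted p = 2.2e-05). Stages 3 and 4 were separate, while stages 1 and 3 overlapped. Its flesh group means ran from 13.9 to 81.6 CPM.

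VIT_17s0000g03690, the third most abundant member, fell in both steps, by 0.55 ± 0.08 and 0.86 ± 0.08 on the log2 scale (edgeR adjusted p = 5.8e-06 and 6.5e-10). Seedless skin averaged 2158 ± 68.1, 1427 ± 285 and 1051 ± 87.1 CPM at stages 1, 3 and 4, and seeded skin 2738 ± 394, 2140 ± 205 and 979 ± 76.2 CPM (SD, n = 3 each). The fall in VIT_08s0058g01230 from stage 3 to stage 4, 0.48 ± 0.15 on the log2 scale (edgeR adjusted p = 0.024), was lost without seeded replicate 2 of stage 3, without seedless or seeded replicate 1 of stage 4, or without number 3 in every group. VIT_03s0038g01510 fell in both steps, by 1.32 ± 0.15 and 0.92 ± 0.15 (edgeR adjusted p = 1.9e-05 and 0.00024).

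The rises were fewer. VIT_02s0025g04340 had a lowest, median and highest level of 66.8, 94.0 and 132 CPM at stage 1, 166, 226 and 278 CPM at stage 3 and 170, 200 and 228 CPM at stage 4. It rose by 1.09 ± 0.10 in the first step (edgeR adjusted p = 3.0e-10) with no overlap, and was not called in the next (-0.22 ± 0.09, edgeR adjusted p = 0.058). VIT_11s0037g01210 rose by 0.81 ± 0.20 from stage 3 to stage 4 (edgeR adjusted p = 0.0047), a call lost without number 2 or 3 in every group.

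VIT_05s0077g01580, the fourth most abundant member, ran against most of the others. It had 698, 867 and 668 CPM in seedless skin and 579, 296 and 227 CPM in seeded skin at stage 1. At stage 4 it had 2366, 1835 and 1810 CPM in seedless skin and 1876, 2178 and 2156 CPM in seeded skin. Every stage 4 library lay above every earlier one, while stage 3 spread from 729.8 to 1664 CPM. It rose by 1.02 ± 0.26 and 0.78 ± 0.26 in the 2 steps (edgeR adjusted p = 0.015 and 0.034). The first call was lost with only the groups compared and without number 2 or 3 in every group, at an adjusted p of up to 0.18. The other was lost with no filter on low counts, without number 2 or 3 in every group, without replicate 2 or 3 of seedless or seeded skin at stage 3, without replicate 1 or 2 of seedless skin at stage 4 and without replicate 2 or 3 of seeded skin at stage 4, at an adjusted p of up to 0.31.

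Of the 104 members, 71 (68.3%) were called in at least 1 ripening step, against 53.3% of the genes with at least 10 CPM. In none of the 6 contrasts within skin were 19 members (18.3%) called, against 37.8% of those genes. Levels of a member in skin could thus differ several-fold between stages or kinds of berry while every skin group stayed at least 5.66-fold above its flesh group on the CPM + 1 scale, which is the bound the rule set.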

How the data were processed

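The single table used holds the read counts the authors deposited, unnormalized whole numbers. The submitters' processing notes list fastp 0.20.0, HISAT2 2.2.1 and featureCounts. The genome build, annotation and strand setting are not stated there, so antisense or near-identical genes cannot be told apart. No per-sample column lay outside the 36 samples (0). Replicates differed from each other by at least 3.45 times the variance counting alone would give and were kept as separate samples. Counts are reads, not molecules, so a limit of 3 counts covers counting error only.

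Within skin, edgeR 4.0.16 in R 4.3.3 fitted 18 libraries in 6 groups (filterByExpr at a count of 10, TMM, robust quasi-likelihood F-test, Benjamini-Hochberg adjustment over 14193 genes, threshold 0.05). The SE is the fold change over the square root of F. CPM printed uses column totals. Alternatives were DESeq2 1.42.0, RLE scaling, no filter, only the groups compared, a replicate block, thinning and left-out libraries. The members and lists were chosen with earlier results of these data known. Lists by product name, promoter motifs and proteins needed an annotation of these identifiers, so they give no result. Named are the most abundant members, the largest called rises and falls per contrast whose libraries do not overlap, the members and genes nearest the threshold and those with the widest smallest difference.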

Additional observations from a re-analysis of the deposited data

Results flagged for a closer look

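In 37 members, or 35.6%, the difference between seedless and seeded skin was itself different at stages 1 and 4. The call was by edgeR's quasi-likelihood test of that change with adjustment over all 14193 genes. In this contrast 15.4% of all tested genes and 20.1% of the genes with at least 10 CPM in skin were called. The named members with the largest such changes were VIT_05s0049g01550 and VIT_00s0454g00010, at 2.58 and 2.07 (log2, stage 4 minus stage 1), and VIT_04s0008g03950 and VIT_10s0003g04940, at -2.38 and -1.98. In VIT_05s0049g01550, VIT_00s0454g00010 and VIT_10s0003g04940 the direction was called at both stages and was opposite. The stage 4 call of VIT_05s0049g01550 was lost in several alternative fits, at an edgeR adjusted p of up to 0.31. That of VIT_10s0003g04940 was lost without number 2 in every group (edgeR adjusted p = 0.058), and that of VIT_00s0454g00010 was kept throughout.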

How the results depend on the processing

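Seeded stage 1 was the shallowest group of each tissue, and the part of depth in the values of the low members was not tested. For seedless against seeded skin at stage 4, the 9 called members became 17 with no filter on low counts, 24 with only the groups compared, 5 with libraries thinned to one depth, 13 with DESeq2 and 18 without the pair of libraries in which members were highest, a setting chosen after seeing the data. In those fits 3.21%, 6.01%, 2.59%, 4.76% and 3.56% of all tested genes were called at that stage. Leaving out libraries or replicate numbers gave 2 to 15 there, 39 to 56 against 53 at stage 1, 15 to 32 against 25 at stage 3, 25 to 43 against 40 for stage 3 minus 1, 43 to 61 against 58 for stage 4 minus 3, and 22 to 44 against 37 for the change of difference. The low ends of 15, 25 and 22 came without replicate 2 (25 also without replicate 3). The share of all tested genes called moved as well over these fits. It ran from 1.14% to 4.02% at stage 4, 11.9% to 20.3% at stage 1 and 5.04% to 11.6% at stage 3. For the 2 ripening steps it ran from 12.7% to 21.3% and 22% to 35%, and for the change of difference from 8.25% to 15.2%. The other settings called 46 to 60 and 23 to 37 members at stages 1 and 3. They called 33 to 42 and 48 to 63 in the ripening steps and 25 to 48 for the change. Of all tested genes they called, in the same order, 13.4% to 20.7%, 7.69% to 12.8%, 14.1% to 21.8%, 22.2% to 37.9% and 10.3% to 15.7%. The rule gave 175 genes at a difference of 2.0, 50 at 3.0 and 95 to 110 without 1 library. Of 1372 alternative values for the 49 called values of named members, 1305 kept the call, 67 lost it and 0 reversed. Many of these values were picked as the largest called changes in the same data. Many settings also left out a library that the contrast does not compare, so the share kept does not measure how firm the calls are. Of 26 named values that were not called, 9 gained a call in at least 1 alternative. With the replicate block, 56, 28, 10, 42, 58 and 41 members were called at stages 1, 3 and 4, in the 2 ripening steps and in the change. The shares of all tested genes were then 20.7%, 11.4%, 4.19%, 21.8%, 34.6% and 15.7%. Same-numbered skin libraries deviated together at correlations of -0.10 to 0.21, with 8 of 45 over 0.1, so the number is not taken as a pairing within skin. Skin and flesh libraries of one group and number did so at 0.07 to 0.27, with 10 of 18 over 0.1; no test here compares skin with flesh. The cause of these shifts was not tested.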
